A study of Mus musculus with 18 samples.

Results

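Unsorted LCP cultures were compared between day 10 and day 4 of differentiation, in 4 of the 18 RNA-seq libraries of the series, 2 for each day. The libraries were taken by title, and the genes by level: 15466 of the 47729 listed genes had at least 1 TPM (a transcript level per length, scaled to the same total in each library) in at least 2 of these 4 libraries. LCP cultures are mouse cochlear cells that were expanded and then differentiated, which the labels also call primary cochlear organoids. The abbreviation is not spelled out there and is taken to mean progenitors from Lgr5-positive cochlear cells. Day 4 (2 libraries) and day 10 (2 libraries) differ in the labels by time of differentiation alone, and no culture in this comparison was sorted. The labels used here give no genotype, strain, age or medium for the cultures, and a tamoxifen and β-catenin protocol in the labels matches no sample title. Each sample is stated to come from 2 ears of 1 pup. In this comparison libraries with the same replicate number share an RNA extraction date in the labels. The date given for replicate 1 falls after its sequencing dates, so those labels contradict each other. Replicate 2 of both days also shares a sequencing date, while replicate 1 does not, so sequencing date and day cannot be told apart within replicate 1.

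Hair cells are the mechanosensory cells of the cochlea, and supporting cells are the epithelial cells that surround them. In the newborn cochlea some supporting cells that carry Lgr5 can divide and turn on Atoh1, the transcription factor that starts the hair cell program. Later steps of that program include the hair bundle, the ion channels that shape the receptor current, the ribbon synapse and the loss of the cell cycle. In whole cultures a higher share of cells of a type and more RNA per cell cannot be told apart.

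The 4 libraries held between 14764 and 15048 genes at 1 TPM or more, and 7.04 to 8.43% of their TPM came from mitochondrially encoded genes. The defining hair cell markers Myo7a, Pou4f3, Gfi1, Otof and Lhfpl5 were present in all 4 libraries, at 7.77 TPM or more. Of the supporting cell markers, Sox2 (14.0 to 41.2 TPM), Gjb6 (129 to 357 TPM) and Lgr5 (4.18 to 61.8 TPM) were present, Fgfr3 ranged from 0.237 to 4.28 TPM, and Prox1 stayed at or below 0.365 TPM. Across genes, log2 levels correlated at 0.914 between the days within replicate 1 and at 0.941 within replicate 2, against 0.885 between the day 4 replicates and 0.862 between the day 10 replicates, so libraries were closer by replicate number than by day.

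Of the 15466 genes, 3 passed an adjusted p of 0.05, which is 0.0194%, in the limma fit of all 18 libraries without a replicate block. One gene was higher at day 10 (0.00647%) and 2 were lower (0.0129%). An unadjusted p under 0.05 was reached by 833 genes, or 5.39%. The median log2 difference over all genes, day 10 minus day 4 on the log2(TPM + 1) scale, was -0.03. Both day 10 libraries lay above both day 4 libraries for 2026 genes (13.1%) and below them for 2248 genes (14.5%). Within each replicate number, day 10 was higher in both for 4177 genes (27.0%) and lower in both for 4802 genes (31.0%). These shares are the background against which the gene lists are read. A gene below 1 TPM in both libraries of a day was tested through the other day alone. Its lack of overlap was then fixed by the filter. Without the day 10 library of replicate 2, 39 genes passed (26 higher, 13 lower), and without the day 4 library of replicate 2 none did, with 1609 genes at an unadjusted p under 0.05.

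Igf2, which encodes a fetal growth factor expressed from the paternal allele, was the one protein-coding gene that passed. Igf2 (chr7:142650766-142666816, minus strand, mm10) measured 86.1 and 86.5 TPM in the day 4 libraries and 11.2 and 10.1 TPM in the day 10 libraries. The groups did not overlap and the replicates of each day lay close together. Its antisense neighbour Igf2os, which reads without strand could not be told from, did not exceed 0.238 TPM. Igf2 fell by 2.90 log2 units with an SE of 0.38 (adjusted p = 0.0327). Day 4 was the high point of the time course, since Igf2 measured 13.4 and 13.7 TPM at day 0 and 24.0 and 22.4 TPM at day 2. The call was lost in 9 of 18 alternatives, among them a fit of the 8 unsorted cultures alone (adjusted p = 0.0876). Without replicate 1 or replicate 2 of day 4, or replicate 1 of day 10, the adjusted p was 0.250, 0.103 and 0.0873, while the log2 difference stayed between -2.97 and -2.84.

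H19, a noncoding RNA of the maternal allele that shares an imprinting control region with Igf2, was also highest at day 4 of the 4 days. It lies at chr7:142575529-142578143 on the minus strand, 72.6 kb from Igf2. Its level was 84.1 and 56.7 TPM at day 4 and 3.88 and 2.53 TPM at day 10. The log2 difference was -4.08 (SE 0.87), which did not pass over all genes (adjusted p = 0.288). H19 measured 0.564 and 3.97 TPM at day 0 and 10.2 and 21.4 TPM at day 2, so in replicate 1 it was lowest at day 0, whereas Igf2 was lowest at day 10 in both replicates. The transcript carries the hairpin of Mir675 inside it, so the listed level of Mir675, 86.9 and 55.7 TPM at day 4 against 2.14 and 0 TPM at day 10, is not independent of H19. Mirlet7d, a hairpin of the let-7 family that is known for repressing growth and fetal genes, was listed at 12.5 and 9.96 TPM at day 4 and at 0 in both day 10 libraries (adjusted p = 0.0874). Mirlet7d was tested through day 4 alone, so its order was fixed by the filter. The levels of Mir675 and Mirlet7d are values of the hairpin genes in a library made from long RNA, not of mature microRNAs. The mature sequences of these hairpins are shown because their seeds, bases 2 to 8 in capitals, set which transcripts they can pair with, and the seeds differ from each other. They are from RefSeq on GRCm38.p6, at chr7:142577112-142577133, chr7:142577078-142577099 and chr13:48536078-48536099, all on the minus strand.
mmu-miR-675-5p: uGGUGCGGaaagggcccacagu
mmu-miR-675-3p: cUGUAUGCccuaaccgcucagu
mmu-let-7d-5p: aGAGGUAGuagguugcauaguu

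The fetal growth and imprinted list had 23 genes, of which 15 were tested. Igf2 alone passed, and the median log2 difference was -0.35. Without overlap 7 members were lower at day 10 and 0 were higher, against 14.5% and 13.1% of all genes. Nnat, a small membrane proteolipid of developing neural and endocrine tissue, measured 51.4 and 49.5 TPM at day 4 and 11.1 and 8.89 TPM at day 10, a log2 difference of -2.23 (adjusted p = 0.705). Cdkn1c, a CDK inhibitor that is high in cells leaving the cycle, had the highest mean of the list, with 1725 and 1128 TPM at day 4 and 289 and 722 TPM at day 10 (log2 difference -1.61, adjusted p = 0.622). Mest gave 207 and 325 TPM at day 4 and 73.8 and 91.6 TPM at day 10, and Grb10, an adaptor that dampens insulin and IGF receptor signals, gave 117 and 29.1 TPM against 27.4 and 8.81 TPM. The receptor that clears IGF2, Igf2r, went from 17.6 and 10.5 TPM to 8.90 and 4.54 TPM, and the RNA-binding protein gene Igf2bp3 from 10.1 and 6.01 TPM to 4.26 and 1.34 TPM. For all of these the day 10 libraries were below both day 4 libraries, and none but Igf2 passed. The other members did not share the pattern: Gnas (586 and 622 TPM against 538 and 646 TPM), Sgce, Ndn and Snrpn overlapped between days, and Phlda2 was higher at day 10 in replicate 1 alone (4.35 to 12.3 TPM) with 0.344 and 0.289 TPM in replicate 2.

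**Figure D1:**
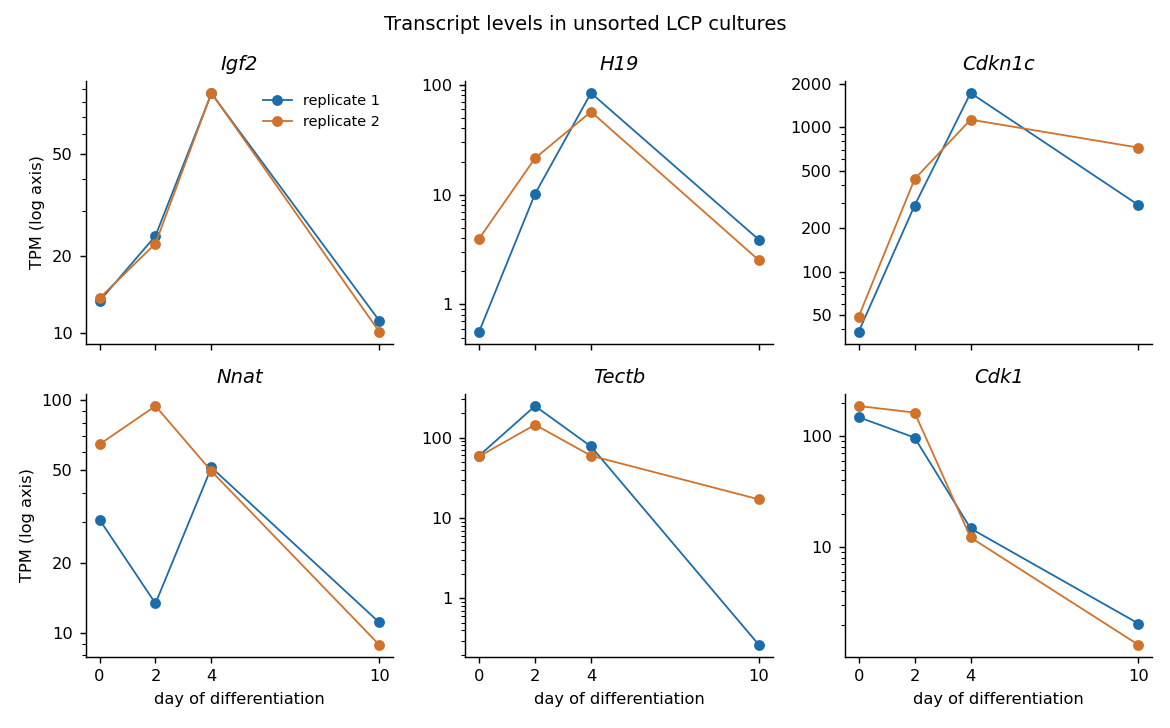
Level in TPM (log axis) of 6 genes over the days of differentiation in unsorted LCP cultures, with a line for each replicate number. Igf2, H19 and Cdkn1c were highest at day 4 in both replicates, while Cdk1 was highest at day 0.

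The 6 hair cell lists together named 85 genes, of which 76 were tested and 0 passed the test over all genes. Without the day 10 library of replicate 2, 1 of them passed, Ush1c, which was lower. Day 10 lay above both day 4 libraries for 15 of the 76 and below both for 7, against 13.1% and 14.5% of all genes. Kcnma1, Kcnab1 and Ocm are among the 15 and were tested through day 10 alone. Within both replicate numbers 44 of the 76 were higher and 12 lower, against 27.0% and 31.0% of all genes. The median log2 difference was 0.48, with 0.73 in replicate 1 and 0.33 in replicate 2. Replicate 2 was the library richer in hair cell genes on both days, with 67 of the 76 above replicate 1 at day 4 and 64 at day 10. For 57 of the 76 genes the day 4 library of replicate 2 was also above the day 10 library of replicate 1, against 46.8% of all genes. The summed level of the lists, in TPM, was 2175 and 7226 at day 4 and 5035 and 12620 at day 10. The groups of 2 overlapped for most hair cell genes, as they did for most of all genes tested. The median of the hair cell genes was above 0 within each replicate number.

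Kcna10, a voltage-gated potassium channel gene of hair cells, had the largest difference of the channel list. Kcna10 (chr3) measured 17.7 and 138 TPM at day 4 and 177 and 573 TPM at day 10, so both day 10 libraries were above both day 4 libraries. The log2 difference was 2.65 (SE 0.76, adjusted p = 0.604). At day 0 and day 2 Kcna10 did not exceed 1.77 TPM. Of the 9 channel, receptor and motor genes tested, 5 were higher without overlap and 1 was lower, against 13.1% and 14.5% of all genes. Their median was 0.98. Kcnma1, the large-conductance calcium-activated channel of mature hair cells, gave 0.308 and 0.440 TPM at day 4 and 1.61 and 5.19 TPM at day 10 (log2 difference 1.55, adjusted p = 0.507). Kcnab1, a potassium channel subunit, gave 0.658 and 0.627 TPM and then 5.55 and 3.78 TPM (1.77, adjusted p = 0.458). In both genes the day 4 replicates were close, and both lay below 1 TPM. Kcnma1 and Kcnab1 were thus tested through day 10 alone, so their place among the 5 without overlap was fixed by the filter. The outer hair cell motor Slc26a5 stayed at or below 0.0758 TPM in all 4 libraries. The subunits of the efferent acetylcholine receptor differed less than their replicates: Chrna9 gave 17.2 and 84.3 TPM against 20.6 and 74.8 TPM, and Chrna10 gave 8.82 and 51.7 TPM against 27.4 and 70.1 TPM.

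At the synapse, Cabp2, a calcium-binding modulator of the hair cell calcium channel, had the highest log2 difference of all hair cell genes at 2.87 (SE 1.01, adjusted p = 0.754). Its level was 29.4 and 233 TPM at day 4 and 208 and 1808 TPM at day 10. The difference was about as large within replicate 1 (2.79) as within replicate 2 (2.95), yet the day 10 library of replicate 1 was just below the day 4 library of replicate 2. Slc17a8, the transporter that loads glutamate into inner hair cell vesicles, measured 0.226 and 1.86 TPM and then 2.79 and 8.20 TPM (1.66, adjusted p = 0.605), without overlap. Otof, the calcium sensor of vesicle release, gave 11.3 and 60.9 TPM against 22.4 and 130 TPM. Ctbp2, whose Ribeye form builds the ribbon, stayed between 53.7 and 58.9 TPM in all 4 libraries. Among the calcium buffers the abundant S100a1 gave 412 and 2359 TPM at day 4 and 1946 and 4844 TPM at day 10, and oncomodulin (Ocm), an outer hair cell buffer, 0.476 and 0.540 TPM and then 2.89 and 4.08 TPM. Ocm was also tested through day 10 alone. Parvalbumin (Pvalb) was split, from 61.0 to 95.0 TPM in replicate 1 and from 331 to 122 TPM in replicate 2.

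The hair bundle list had 30 tested members and a median of 0.44. Without overlap 5 were higher and 1 lower, against 13.1% and 14.5% of all genes. Fscn2, an actin cross-linker of mature stereocilia, gave 3.27 and 30.9 TPM at day 4 and 37.2 and 83.2 TPM at day 10 (log2 difference 2.28, adjusted p = 0.661). Ptprq, a phosphatase of the stereocilia base, gave 2.49 and 11.2 TPM and then 12.8 and 19.8 TPM, and Clic5, found near the same base, 1.86 and 4.38 TPM and then 5.55 and 8.57 TPM. Espn, the actin bundler espin, was higher at day 10 within each replicate number but overlapped between groups, at 51.4 and 221 TPM against 170 and 507 TPM. Triobp, a rootlet protein with the highest mean of the list, did not move beyond its replicates (191 and 355 TPM against 207 and 288 TPM). Tprn, taperin of the stereocilia base, was lower within each number, at 45.2 and 164 TPM against 27.0 and 58.3 TPM, and Gpsm2, which sets bundle polarity, was lower without overlap, at 94.7 and 136 TPM against 69.8 and 93.2 TPM.

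Among 12 mechanotransduction genes 1 was higher and 1 lower without overlap (13.1% and 14.5% over all genes), and the median was 0.65. Tmc1, a subunit of the mature transduction channel, gave 2.55 and 10.4 TPM at day 4 and 9.04 and 39.9 TPM at day 10 (log2 difference 1.67, adjusted p = 0.888). Tmc2, its early counterpart, was near 0 in replicate 1 (0.108 and 0.0713 TPM) and went from 1.15 to 3.96 TPM in replicate 2. Cib3, a calcium-binding partner of these channels, gave 13.9 and 143 TPM and then 32.8 and 820 TPM. Its mean was the highest of the list through the day 10 library of replicate 2, and in each of the other 3 libraries another member was higher. The tip link genes did not share this direction, since Pcdh15 gave 6.47 and 7.70 TPM against 4.60 and 5.70 TPM and Cdh23 5.83 and 10.1 TPM against 6.25 and 5.87 TPM. Ush1c, harmonin, gave 62.7 and 131 TPM at day 4 and 16.0 and 137 TPM at day 10, so the libraries labelled replicate 1 and replicate 2 parted.

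The transcription factors stood apart from these lists, with a median of -0.12 over 11 tested. Without overlap 1 was higher and 3 lower, against 13.1% and 14.5% of all genes. Atoh1 gave 45.8 and 42.7 TPM at day 4 and 24.3 and 14.2 TPM at day 10, a log2 difference of -1.21 (SE 0.69, adjusted p = 0.985). Both day 10 libraries were below both day 4 libraries, and Atoh1 had been at 2.75 and 5.79 TPM at day 0. Gfi1, a repressor downstream of Atoh1, lay in the other direction at 18.8 and 56.3 TPM and then 80.9 and 145 TPM (1.70, adjusted p = 0.732). Pou4f3, the factor needed for hair cell survival, overlapped at 12.5 and 34.8 TPM against 19.4 and 37.9 TPM. Isl1, which is on in the early sensory epithelium, gave 97.1 and 71.9 TPM and then 50.6 and 54.9 TPM. In the sorted day 10 cultures of the series, Atoh1 measured 31.5 and 27.5 TPM, Gfi1 244 and 158 TPM and Kcna10 1163 and 771 TPM.

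**Figure D2:**
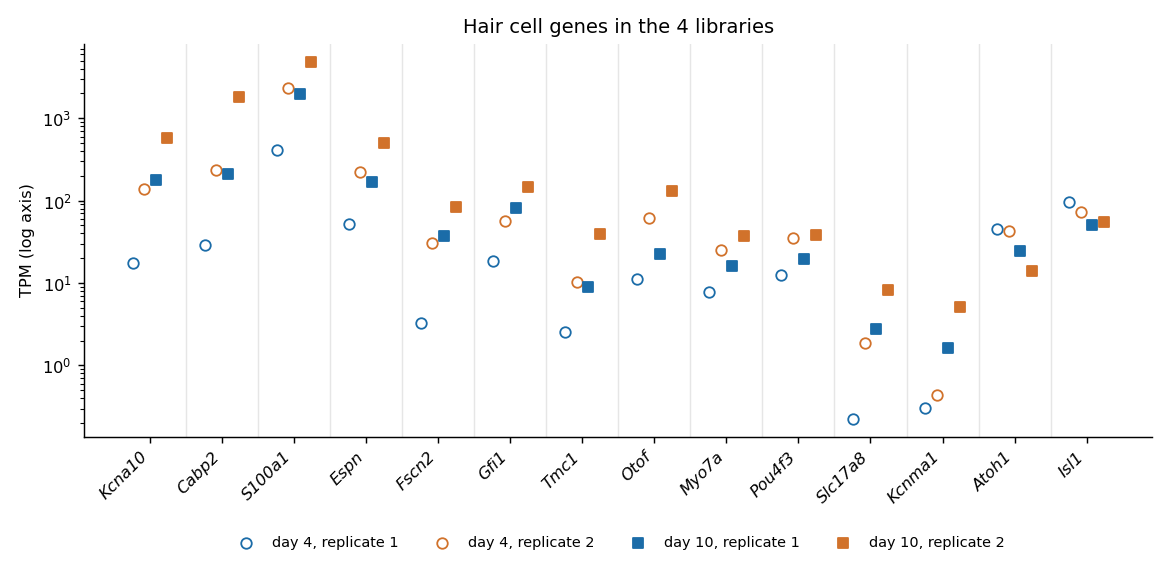
Level in TPM (log axis) of 14 hair cell genes in the 4 libraries, open circles for day 4 and filled squares for day 10, coloured by replicate number. Kcna10, Gfi1, Fscn2, Slc17a8 and Kcnma1 were higher in both day 10 libraries, Cabp2 and Espn overlapped between days, and Atoh1 and Isl1 were lower at day 10. Kcnma1 was tested through day 10 alone.

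Drc1, a subunit of the nexin-dynein regulatory complex of motile cilia, was given as a marker of this step and measured 20.6 and 102 TPM at day 4 and 79.8 and 143 TPM at day 10. The day 4 library of replicate 2 was above the day 10 library of replicate 1, and the log2 difference of 1.19 (SE 0.84) did not pass (adjusted p = 0.999). Hair cells grow 1 true cilium, the kinocilium, as the bundle forms, and its axoneme shares many proteins with motile cilia. Of 58 axonemal genes listed 46 were tested and 0 passed. Without overlap 3 were higher and 1 lower, against 13.1% and 14.5% of all genes. Within both replicate numbers 29 were higher and 4 lower, against 27.0% and 31.0% of all genes. The median was 0.43, made up of 0.68 in replicate 1 and 0.11 in replicate 2. All 46 were higher in replicate 2 than in replicate 1 at day 4. The dynein assembly factor gene Ccdc103 gave 2.53 and 10.7 TPM and then 12.2 and 13.4 TPM, and Cfap45 gave 11.1 and 33.0 TPM and then 41.3 and 47.2 TPM. The radial spoke gene Rsph1 gave 6.00 and 38.7 TPM against 21.9 and 60.7 TPM, and Cfap69, the member with the highest mean, 63.5 and 150 TPM against 80.9 and 124 TPM. Foxj1, the regulator of motile cilium genes, stayed at 8.42 and 17.5 TPM against 7.69 and 18.4 TPM. The multiciliation genes Mcidas, Gmnc and Deup1 did not exceed 0.205 TPM, but not all genes of their list were that low. Of the 9 genes listed 3 were tested and 0 passed, with a median of 0.03. Without overlap 1 was higher and 0 lower, against 13.1% and 14.5% of all genes. The higher one was Ccno, which did not exceed 2.3 TPM. Myb, which was not tested, was at 2.425 TPM in the day 4 library of replicate 1 and at or below 0.675 TPM in the others.

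Promoters of axonemal genes were searched for GTTGCC, the 6 letters of the half-site that RFX factors bind, on both strands (GGCAAC on the other), in RefSeq windows of GRCm38.p6 from 250 bases before to 50 bases after the annotated start. Of the 58 axonemal genes 46 matched a window. The letters were present in 19 of their 52 windows (36.5%), against 4111 of 32851 windows of the same length for all genes (12.5%). This is a match of letters, not a binding site. The 250 bases before the start are shown for 3 members that were higher at day 10 by their mean, with the matches in capitals. They lie at chr5:30281143-30281392 on the plus strand (Drc1), chr16:44394549-44394798 on the plus strand (Cfap44, 3.87 and 17.5 TPM against 10.97 and 18 TPM) and chr11:72361883-72362132 on the minus strand (Tekt1, 17.8 and 70.8 TPM against 38.7 and 62.4 TPM). The match nearest the start began 11 bases before it in Drc1, 19 bases in Cfap44 and 15 bases in Tekt1.
Drc1: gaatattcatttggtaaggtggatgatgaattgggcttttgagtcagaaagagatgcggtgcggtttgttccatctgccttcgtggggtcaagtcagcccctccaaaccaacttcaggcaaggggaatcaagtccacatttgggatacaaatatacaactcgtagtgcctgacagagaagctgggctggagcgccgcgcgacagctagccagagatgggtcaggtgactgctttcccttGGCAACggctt
Cfap44: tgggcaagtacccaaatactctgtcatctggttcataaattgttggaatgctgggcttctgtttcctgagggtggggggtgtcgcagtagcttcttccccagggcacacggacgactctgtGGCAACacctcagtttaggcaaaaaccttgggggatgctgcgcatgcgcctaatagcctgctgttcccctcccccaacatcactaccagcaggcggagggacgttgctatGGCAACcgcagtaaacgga
Tekt1: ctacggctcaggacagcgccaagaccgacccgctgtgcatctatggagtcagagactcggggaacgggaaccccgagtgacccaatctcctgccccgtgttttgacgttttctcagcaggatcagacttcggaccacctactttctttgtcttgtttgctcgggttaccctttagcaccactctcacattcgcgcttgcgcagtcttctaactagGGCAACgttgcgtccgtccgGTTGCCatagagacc

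The mitosis list had 21 genes, of which 13 were tested and 0 passed. Both day 10 libraries were below both day 4 libraries for 12 of the 13, against 14.5% of all genes, with a median of -0.86. The exception was Tpx2 (3.35 and 1.41 TPM against 3.29 and 2.04 TPM). Ccnb1, Aurkb, Birc5, Ube2c, Ccna2, Cenpf, Kif23 and Kif20a were below 1 TPM in both day 10 libraries. They were tested through day 4 alone, so their order was fixed by the filter. Cdk1, the kinase that drives entry into mitosis, gave 14.7 and 12.2 TPM at day 4 and 2.04 and 1.31 TPM at day 10 (log2 difference -2.44, SE 0.53, adjusted p = 0.297). It had been at 148 and 187 TPM at day 0, so most of the difference over the time course lay before day 4. Cdc20, an activator of the anaphase-promoting complex, gave 22.7 and 11.2 TPM and then 4.44 and 6.68 TPM, and Aurkb 2.48 and 1.41 TPM and then 0.101 and 0.641 TPM. Mki67, a marker of cycling cells, was already at 0.306 and 0.152 TPM at day 4, below the filter, and was at 0.0586 and 0.0318 TPM at day 10. Of 17 S phase genes 6 were lower and 0 higher without overlap (14.5% and 13.1% over all genes), with a median of -0.46. Mcm6, a subunit of the replicative helicase, gave 9.80 and 18.3 TPM and then 2.88 and 7.34 TPM, while the sliding clamp Pcna stayed between 26.2 and 39.0 TPM. The CDK inhibitor Cdkn1a overlapped (342 and 167 TPM against 378 and 126 TPM), and Cdkn2d gave 34.5 and 134 TPM against 106 and 257 TPM.

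The listed levels of the replication-dependent histone genes did not follow the cell cycle lists. Of 68 listed 18 were tested, 10 were at 0 in all 4 libraries and 0 passed. Without overlap 7 were higher and 0 lower (13.1% and 14.5% over all genes), with a median of 0.78. Of the 7, Hist2h2aa1 was tested through day 10 alone. How well the library kit captured these transcripts was not tested, so their levels are not read as a measure of S phase. Hist2h2aa2 gave 9.58 and 20.6 TPM at day 4 and 48.5 and 44.0 TPM at day 10 (log2 difference 1.64, adjusted p = 0.661), and Hist3h2a gave 9.46 and 29.1 TPM and then 46.2 and 54.3 TPM. Hist1h1c, a linker histone, gave 7.21 and 3.01 TPM and then 147 and 9.42 TPM, so its size rested on replicate 1. Hist1h2ap was lower at day 10 in both numbers (73.8 and 7.41 TPM against 10.6 and 4.66 TPM). Near-identical histone copies can share reads, and the sources used here do not give how such reads were divided.

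The tectorial and otolithic matrix list covers proteins of the acellular membranes that overlie hair cells. Of 12 tested genes 0 passed, and the median was -1.25. Without overlap 5 were lower and 0 higher, against 14.5% and 13.1% of all genes. Tectb, β-tectorin, gave 77.7 and 59.6 TPM at day 4 and 0.265 and 17.1 TPM at day 10 (log2 difference -3.85, SE 1.20, adjusted p = 0.654). Tecta, α-tectorin, gave 134 and 129 TPM and then 16.3 and 62.2 TPM. The difference was larger in replicate 1 for both genes, and for Tectb it was -5.96 in replicate 1 and -1.74 in replicate 2 on the log2 scale. Otoa, which anchors the tectorial membrane and had the highest mean, split between numbers, from 1160 to 492 TPM in replicate 1 and from 810 to 1292 TPM in replicate 2. Otol1 was the one member with a higher day 10 mean (307 and 694 TPM against 386 and 881 TPM). Among 18 collagen genes 8 were lower and 0 higher without overlap (14.5% and 13.1% over all genes), with a median of -0.78. Col2a1, the main fibrillar collagen of the tectorial membrane and of cartilage, gave 1099 and 150 TPM and then 143 and 41.7 TPM, and Col9a2 gave 1693 and 653 TPM and then 479 and 299 TPM. Fbln1, a matrix glycoprotein outside these lists, gave 17.8 and 9.16 TPM and then 0.909 and 1.35 TPM (log2 difference -2.71, SE 0.49, adjusted p = 0.139).

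Of 21 supporting cell genes 0 passed, 1 was higher and 1 lower without overlap (13.1% and 14.5% over all genes), and the median was -0.17. Sparcl1, highest by its mean, gave 473 and 387 TPM at day 4 and 265 and 253 TPM at day 10, and Sox9 gave 64.8 and 47.5 TPM and then 78.5 and 74.6 TPM. Sox2 differed in replicate 2 alone (15.5 to 41.2 TPM) and stayed at 15.3 and 14.0 TPM in replicate 1. Lgr5 went from 22.8 to 61.8 TPM in replicate 1 and from 8.57 to 4.18 TPM in replicate 2. In the Notch pathway, by which a hair cell holds its neighbours in the supporting cell fate, 17 genes were tested with a median of -0.61. Without overlap 3 were lower and 2 higher, near the 14.5% and 13.1% of all genes. The ligand Dll3 gave 9.45 and 32.4 TPM and then 1.83 and 6.87 TPM (log2 difference -1.98, adjusted p = 0.841), while the ligand Dll1 gave 17.5 and 20.8 TPM against 16.0 and 23.7 TPM. The ligand Jag2 was lower within each number (20.1 and 40.4 TPM against 11.96 and 21.4 TPM). Hes6, a Hes family gene that acts downstream of proneural factors, gave 100 and 109 TPM and then 53.5 and 75.8 TPM. The Notch effector Hes1 was far apart between the replicates of a day, at 80.0 and 6.14 TPM and then 44.9 and 4.35 TPM. Of 19 Wnt pathway genes none was higher or lower without overlap (13.1% and 14.5% over all genes), and the median was -0.30. Ctnnb1, β-catenin, gave 320 and 221 TPM against 282 and 202 TPM, and Lef1, a nuclear effector, was at 27.6 and 64.5 TPM in replicate 1 and at 0.911 and 0.476 TPM in replicate 2.

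**Figure D3:**
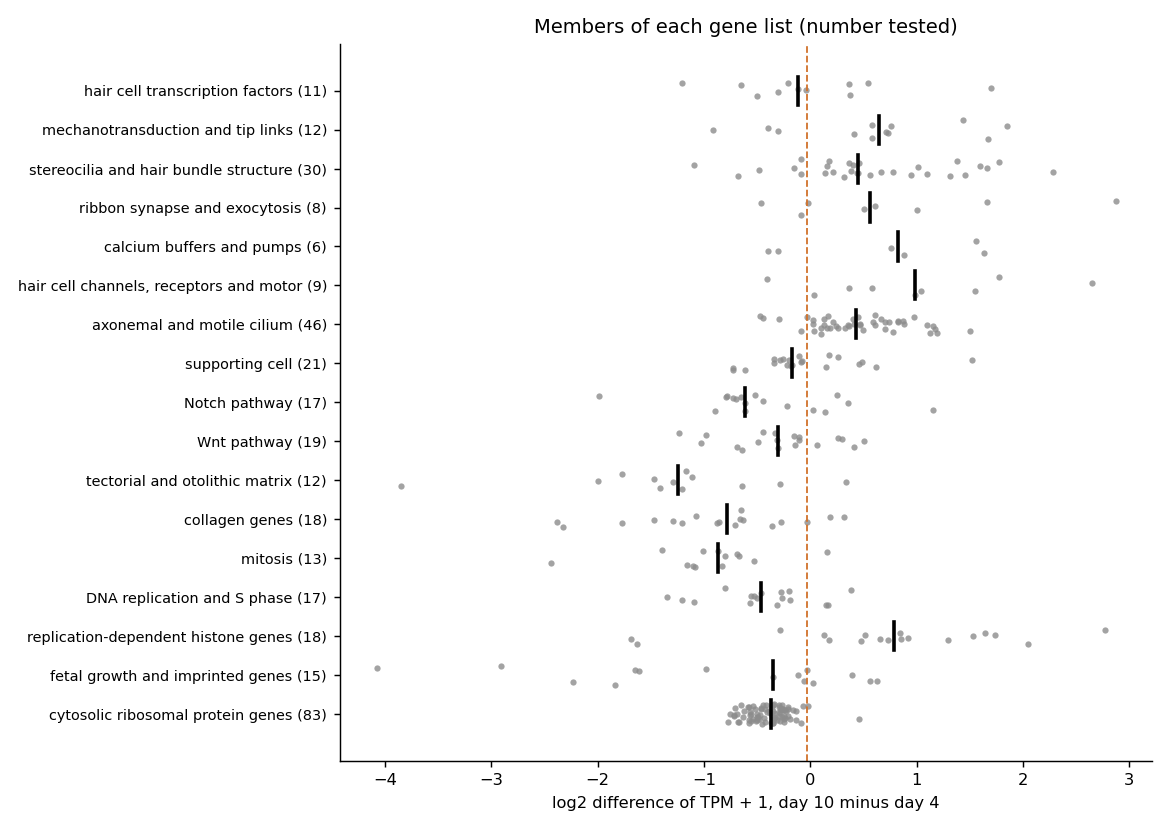
Log2 difference of TPM + 1, day 10 minus day 4, for each tested member (points) of 17 gene lists, with the list median (black bar) and the median of all genes (dashed line, -0.03). Among the plotted lists, hair cell channel and calcium genes had the highest medians (0.98 and 0.82), and tectorial matrix (-1.25) and mitosis genes (-0.86) the lowest, with members on both sides in most lists. Several mitosis genes were tested through day 4 alone, and Kcnma1, Kcnab1 and Ocm through day 10 alone.

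Cytosolic ribosomal protein genes were lower at day 10 without overlap for 38 of 83 tested and higher for 0 (14.5% and 13.1% over all genes). Their median was -0.37, and 0 passed. The difference lay in replicate 2 (median -0.69) more than in replicate 1 (-0.04). Rps19, highest by its mean, gave 2640 and 1881 TPM and then 1882 and 897 TPM. Nuclear genes of the respiratory chain had a median of 0.20 over 81 tested, again unequal between replicate 1 (0.49) and replicate 2 (-0.08). Without overlap 16 were higher and 2 lower, against 13.1% and 14.5% of all genes. Atp5j, an ATP synthase subunit, gave 1851 and 3083 TPM against 2821 and 3103 TPM. The mitochondrially encoded genes had a median of -0.05 (0.06 in replicate 1 and -0.11 in replicate 2). The 19 hypoxia and glycolysis genes had a median of 0.07, but the replicates lay in opposite directions (-0.43 in replicate 1 and 0.30 in replicate 2), with Gapdh at 1777 and 2287 TPM against 1584 and 2976 TPM. Over all 33 lists with a tested member, the medians of the replicates had opposite signs in 11.

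**Figure D4:**
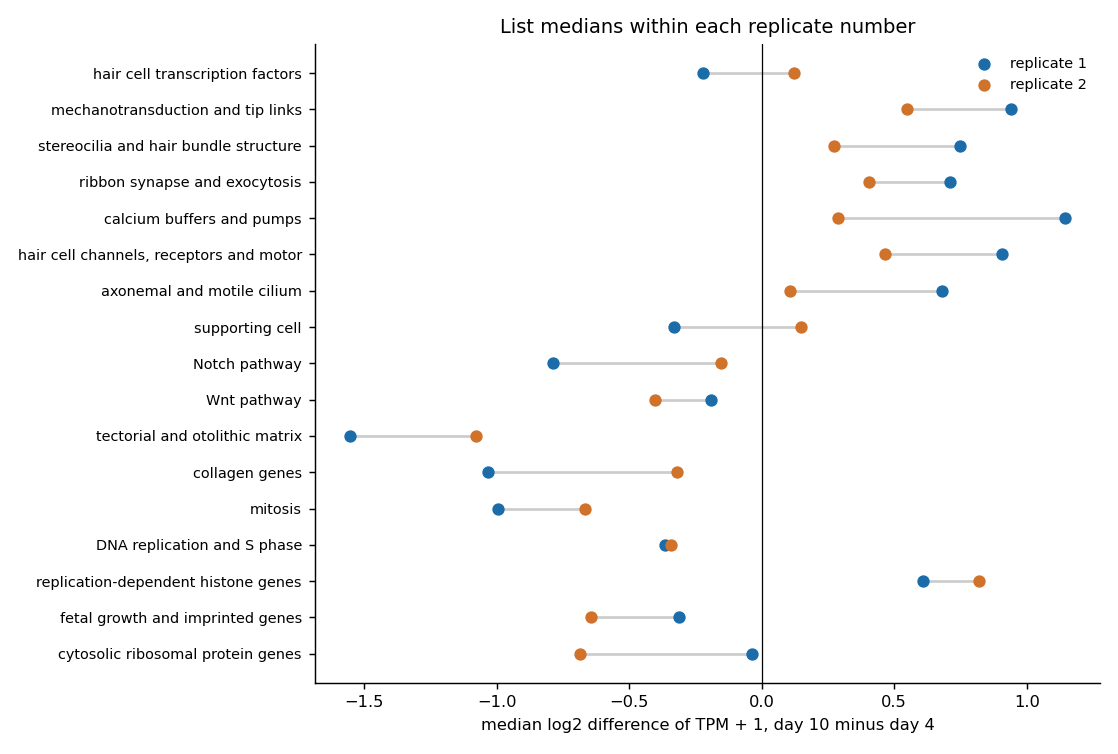
Median log2 difference of TPM + 1, day 10 minus day 4, of 17 gene lists within replicate 1 (blue) and within replicate 2 (orange). Of the plotted lists, those of hair cell transcription factors and supporting cell genes had medians of opposite sign, and the ribosomal protein median was -0.04 in replicate 1 and -0.69 in replicate 2.

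Markers of other cell types were present at low to moderate levels, and their part in the results was not tested. The mesenchyme list summed to 545 and 671 TPM at day 4 and 513 and 451 TPM at day 10, nearly all from Dcn (371 and 345 TPM against 279 and 205 TPM) and Lum. Twist2 was listed at 0 in all 4 libraries and Pou3f4, the factor of cochlear mesenchyme, did not exceed 0.104 TPM. The neuron list summed to 23.4 and 157 TPM and then 71.4 and 202 TPM, in the same order of libraries as the hair cell genes. The 3 tested members, Nefm, Nefl and Snap25, had a median log2 difference of 0.84 (1.62 in replicate 1 and 0.09 in replicate 2). Tubb3, a neuronal tubulin, went from 0.813 to 7.31 TPM in replicate 1 and from 0.234 to 0.103 TPM in replicate 2, while Neurog1 was at 0 and Stmn2 at or below 0.194 TPM. The glia list summed to 201 and 187 TPM and then 139 and 186 TPM, of which Cnp and Sox10 are also found in cochlear epithelium. The immune list summed to 1.60 and 3.12 TPM and then 9.30 and 2.80 TPM, with 1 of 12 tested and C1qc at 0. Cd68, a lysosomal protein of macrophages, made up most of the highest sum, from 0.9795 to 7.77 TPM in replicate 1 against 0.890 to 0.187 TPM in replicate 2. Endothelial markers summed to at most 4.49 TPM with Cldn5 at 0, erythroid markers to at most 0.514 TPM with Hbb-bt at 0, and melanocyte markers to at most 12.1 TPM, most of it Kit, with Tyrp1 at 0. The list of other cochlear epithelium, led by Slc26a4 of the endolymphatic lining, summed to 88.7 and 126 TPM and then 82.7 and 151 TPM.

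Outside the lists, the largest differences without overlap at 10 TPM or more were named after their values were seen. Neat1, the noncoding RNA that builds paraspeckles, gave 6.76 and 6.90 TPM at day 4 and 104 and 78.3 TPM at day 10 (log2 difference 3.55, SE 0.72, adjusted p = 0.232). Hopx, a small homeodomain cofactor of differentiating epithelia, gave 0.719 and 2.60 TPM and then 13.6 and 43.1 TPM (3.35, adjusted p = 0.101). In both genes the replicates of each day lay on the same side, and the sorted day 10 cultures were higher still, at 430 and 269 TPM for Neat1 and at 91.3 and 89.9 TPM for Hopx. The metallothioneins, which bind zinc, were higher too: Mt1 gave 37.0 and 192 TPM and then 524 and 874 TPM, and Mt2 gave 4.44 and 44.7 TPM and then 111 and 167 TPM. Spp1, the secreted phosphoprotein osteopontin, gave 43.2 and 341 TPM and then 444 and 5063 TPM, and Lce6a, a late cornified envelope gene, 0.836 and 13.2 TPM and then 31.9 and 237 TPM. On the lower side, Eya2, a transcriptional coactivator of otic development, gave 69.6 and 127 TPM and then 13.2 and 23.4 TPM, Zfp618 15.1 and 18.7 TPM and then 0.392 and 3.95 TPM, and Igfbp4, an IGF-binding protein, 21.8 and 51.6 TPM and then 2.80 and 11.3 TPM. None of these passed the test over all genes.

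The other 2 genes that passed were short noncoding genes. Mir6360, a microRNA gene, was listed at 0 in both day 4 libraries and at 5.34 and 3.66 TPM at day 10 (log2 difference 2.44, adjusted p = 0.00720), and at 20.9 and 19.9 TPM in the sorted day 10 cultures. It was at 0 in the other unsorted cultures and in all native sorts. The 5S ribosomal RNA gene n-R5s89 was listed at 2.68 and 5.41 TPM at day 4 and at 0 in both day 10 libraries (-2.28, adjusted p = 0.0226). 5S genes exist in many near-identical copies, so its reads may belong to another copy. Both calls were lost without the day 4 library of replicate 2 (adjusted p = 0.0627 and 0.0671), and that of n-R5s89 also without the day 10 library of replicate 1 (0.0620). TPM divides by length, so very short genes reach these values from few reads, and libraries that are all at 0 make the estimated spread small. Mir6360 was tested through day 10 alone and n-R5s89 through day 4 alone, so their lack of overlap was fixed by the filter.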

How the data were processed

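RNA was measured in 18 mouse cochlear libraries, 9 groups of 2 by title. Per the labels' protocols, 2.5 ng of RNA was amplified with a SMARTer V4 kit, and single-end 75 bp reads were taken. These kits do not mark strand, so overlapping antisense genes cannot be told apart (Igf2 overlaps an antisense gene). Each deposited file gives a TPM level for every gene, scaled by the authors to 1000000 per library. STAR, Salmon, FastQC, DESeq2 and mm10 are named per the submitters' processing notes, without versions or roles. TPM keeps no depth, so depth and counting error are unknown and no intervals are given.

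Of 47729 identifiers 47224 matched a gene symbol. Coordinates are from GENCODE M21, on the build of the files. Levels were changed to log2(TPM + 1), which understates changes of low genes, and tested with limma 3.58.1 in R 4.3.3 (a mean per group over all 18 libraries, trend, contrast day 10 minus day 4, Benjamini-Hochberg over 15466 genes, threshold 0.05, 9 residual and 3.1 prior degrees of freedom). The scripts were tested on simulated data. Tables used Python 3.11.15, pandas 2.3.3, numpy 2.4.6 and matplotlib 3.10.9. All 12 housekeeping genes were above 0 in every library. Nothing in the labels says that replicates are separate cultures, so p-values measure the spread between these samples.

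Genes and lists were chosen with earlier results of these data known, and lists are described by counts and medians without a test. The rule for named genes takes Kcna10, Drc1 and H19, up to 12 genes past the threshold in each direction whose groups do not overlap and average at least 10 TPM in the higher group, the member of each list with the highest mean, and Atoh1, Pou4f3, Myo7a, Sox2, Lgr5 and Mki67. Members of lists at low levels that this rule takes are left out. All other genes were named after their values were seen, and 1 gene counted in a list is not reported here. Same-numbered unsorted libraries share an extraction date in the labels, although the date for replicate 1 is later than its sequencing dates. The numbers were therefore taken to pair the unsorted samples for the differences within a replicate number and for the replicate block. The sorted libraries of a number do not all share that date. In the fit of all 18 libraries the block thus followed the number alone. Deviations of the day 4 and day 10 libraries from the group means correlated at 0.508 across genes. The main fit had no block, so its SEs and adjusted p-values did not use the pairing. Alternatives covered the pseudocount, the filter, the libraries in the fit, the replicate block, scaling, the variance prior and each library left out.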

Additional observations from a re-analysis of the deposited data

How the results depend on the processing

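Against 3 genes that passed, 5 did with a pseudocount of 0.1 (1 of the 3 among them, without Igf2 and n-R5s89) and 6 with a pseudocount of 5 (all 3 among them). A filter of 5 TPM left 0 (549 genes at an unadjusted p under 0.05). Of the 3 genes, Igf2 alone was still tested under that filter (adjusted p = 0.0633 in the limma fit), and the others were removed by it. Fits of the 8 unsorted cultures (650 genes at that unadjusted p) or of the 4 compared libraries alone (415) also left 0. With no filter 4 passed, 2 of the 3 among them and not Igf2 (adjusted p = 0.0542). With median-ratio scaling or with no trend 4 passed, and the same 3 with quantile scaling, without mitochondrial genes, with a robust prior and with a filter over all 18 libraries. With 1 library left out the count ranged from 0 to 39. A lone library was then assumed to vary like the other groups.

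The replicate numbers were taken to pair the unsorted samples by the extraction date in the labels, which for replicate 1 is later than the sequencing dates. Over all 18 libraries a replicate number spans several extraction dates, so there the block followed the number and not a shared date. The main fit did not use this pairing. With the replicate block in the fit of all 18 libraries 3 genes passed, and Igf2 had an adjusted p of 0.0198. With the replicate block in the fit of the 8 unsorted cultures 0 genes passed (1564 at an unadjusted p under 0.05). The block changed no other call named in the text.

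Of 52 genes followed through the alternatives whose filter they passed, Foxj1 was the one that changed sign in a fit of all compared libraries (0.031 with quantile scaling). Within replicate 2 alone, 7 of the 52 had the other sign, namely Cfap69, Foxj1, Hmga1, Krt18, Lgr5, Otoa and Pcna (the last at about 0), as had 14 of the 65 genes given by their levels alone. With 1 library left out the log2 difference of 19 genes changed sign, with these ranges: Atp5j -0.059 to 0.68, Cdkn1a -0.92 to 0.66, Cfap69 -0.57 to 0.65, Cib3 -0.45 to 4.15, Cnp -0.59 to 0.49, Ctnnb1 -0.42 to 0.11, Foxj1 -0.60 to 0.56, Gapdh -0.35 to 0.56, Hmga1 -0.22 to 0.94, Krt18 -0.80 to 0.82, Lgr5 -1.54 to 2.06, Myo7a -0.031 to 1.55, Nefm -0.60 to 2.28, Otoa -0.98 to 0.41, Pcna -0.11 to 0.44, Pou4f3 -0.35 to 1.06, Slc26a4 -0.58 to 1.52, Sox2 -0.13 to 1.36 and Triobp -0.54 to 0.35. Of the 65, 32 did so. Hopx passed without the day 10 library of replicate 1 (adjusted p = 0.0498), and Mirlet7d with a pseudocount of 5 (0.0218). Scaling changed the sign of no list median but those of the endothelium and the Lin28, Hmga2 and Igf2bp lists. TPM keeps no depth, so which low genes were too shallow to test is unknown. The causes of these differences were not tested.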

Other observations

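Some genes were high or low in the day 10 library of replicate 1 alone. Nupr1, a stress-induced chromatin protein, measured 5.49 and 10.2 TPM at day 4 and 823 and 10.6 TPM at day 10. S100a6 gave 53.1 and 32.4 TPM and then 783 and 17.9 TPM, and the keratin Krt17 gave 11.6 and 4.73 TPM and then 118 and 0.400 TPM. Notum, an enzyme that inactivates Wnt proteins, was at 0.132 and 0.0733 TPM at day 4 and at 19.2 and 0.0157 TPM at day 10. The carbonic anhydrase Car9, a hypoxia target, went the other way, with 303 and 527 TPM and then 6.59 and 605 TPM. At least an 8-fold gap between the replicates, at 10 TPM or more in 1 of them, was found for 124 and 99 genes at day 4 (higher in replicate 1 and in replicate 2) and for 170 and 211 genes at day 10. Sequencing date and day of differentiation differ together in replicate 1, and their parts in these gaps cannot be told apart.

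The immediate early and dissociation stress genes had a median log2 difference of 0.12 over 17 tested, with -0.43 in replicate 1 and 0.49 in replicate 2. Fos gave 145 and 276 TPM and then 51.8 and 1313 TPM. Hsp90aa1, a heat shock chaperone, was higher without overlap, at 441 and 631 TPM and then 854 and 844 TPM (adjusted p = 0.799 in the limma fit). The epithelial keratins and junction genes had a median of -0.23 (0.04 in replicate 1 and -0.51 in replicate 2), and Krt18 gave 2139 and 1064 TPM against 2673 and 864 TPM. The p53 targets had a median of 0.21 (0.28 in replicate 1 and -0.38 in replicate 2). The Lin28, Hmga2 and Igf2bp genes had one of -0.04 (0.35 and -0.42), whose sign changed with the scaling, and Hmga1 led them by its mean at 25.3 and 28.1 TPM against 51.9 and 22.7 TPM.

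Genes of small noncoding RNAs made up 1174 of the genes tested, 2 of the 3 genes that passed and 11 of the 20 genes with the smallest p. Of these 1174 genes, 35 were listed at 0 in both day 4 libraries and 74 at 0 in both day 10 libraries.

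In the sorted day 10 cultures Igf2 measured 2.45 and 1.23 TPM, H19 2.13 and 0.914 TPM, Cabp2 4251 and 3361 TPM, Drc1 218 and 155 TPM, Spp1 12730 and 7829 TPM and Tectb 0.871 and 7.08 TPM. For each of these genes the mean of the unsorted day 10 cultures lay between the unsorted day 4 mean and the sorted day 10 values. For Tectb the unsorted day 10 library of replicate 1 (0.265 TPM) was below both sorted values.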
